A study of Mus with 2 samples.

Results

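The genes examined here are 10 genes of the integrated stress response and the unfolded protein response: *Atf4*, *Atf5*, *Ddit3*, *Trib3*, *Asns*, *Chac1*, *Fgf21*, *Gdf15*, *Hspa5* and *Xbp1*. They were taken by name from 32285 genes in single-nucleus RNA sequencing (snRNA-seq) data of mouse interscapular brown adipose tissue (iBAT), and all 10 were listed and detected in both libraries. Animals of the control library were *Wtap* flox/flox, with loxP sites on both sides of 1 exon of *Wtap*, and had no Cre. The other library was labelled *Wtap*-BKO and came from *Wtap* flox/flox mice that also carry *Ucp1*-iCre, a Cre recombinase expressed from the *Ucp1* gene and therefore active in brown adipocytes. Both were C57BL/6 mice on chow at 8 weeks of age, and each library pooled 4 mice that cannot be separated.

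In the integrated stress response, kinases that sense different stresses phosphorylate the translation factor eIF2. General protein synthesis then slows, while the mRNA of the transcription factor ATF4 is translated more, and ATF4 activates genes for amino acid supply together with *Atf5*, *Ddit3*, *Trib3*, *Chac1* and, in many tissues, the hormones FGF21 and GDF15. The unfolded protein response starts in the endoplasmic reticulum (ER), where PERK (one of the eIF2 kinases), IRE1 and ATF6 raise chaperones such as BiP, the product of *Hspa5*, and IRE1 splices the mRNA of the transcription factor XBP1. Brown adipocytes are known to release FGF21 and GDF15 under mitochondrial or thermogenic stress. UMIs (unique molecular identifiers, each counting 1 captured transcript) show neither the translation of *Atf4* nor the splicing of *Xbp1*, so the values below are RNA levels in nuclei.

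The control library had 10770604 UMIs in 9494 nuclei (median 954 per nucleus), and the library labelled *Wtap*-BKO had 13945673 UMIs in 8772 nuclei (median 1306). The 10 genes had 3212 UMIs in the former and 6727 in the latter. Mitochondrially encoded RNA took 7.60% and 11.7% of the UMIs, and 20 cell barcodes occurred in both libraries. Nuclei were grouped into 14 clusters without the 10 genes or their pathway genes. Of these, 5 clusters were adipocyte-like, which took 6708 control nuclei and 4763 labelled *Wtap*-BKO. The Schwann cell-like cluster also met 5 of 9 fibroblast markers. Levels are given as CPM, the UMIs of a gene per 1000000 UMIs of a class. With 1 library per genotype there was no replicate and no test, and every interval is an exact 95% interval that covers counting error only.

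*Wtap* itself was not lower beyond counting error in the library labelled *Wtap*-BKO. In adipocyte-like nuclei it had 382 control UMIs, a CPM of 50.5, beside 390 at a CPM of 47.5 under the *Wtap*-BKO label, and the log2 ratio was -0.09 (-0.30 to 0.12), or 0.03 with mitochondrial UMIs left out of the denominator. Cre removes only that exon, and whether the counted reads come from it was not tested, so this value does not check the label. Unless another pair is named, a log2 ratio sets the library labelled *Wtap*-BKO against the control.

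In adipocyte-like nuclei the 10 genes did not move as 1 block. *Atf4*, *Gdf15*, *Hspa5* and *Xbp1* were higher in the library labelled *Wtap*-BKO, so that 4 of 8 genes with 20 or more UMIs had an interval above 0 and 0 had one below, beside 31.2% and 24.6% of all 14024 genes with as many UMIs. The intervals of *Ddit3*, *Atf5*, *Trib3* and *Asns*, which are all known ATF4 targets, held 0, although that of *Ddit3* did not with mitochondrial UMIs left out of the denominator, at 0.27 (0.09 to 0.45). *Chac1* and *Fgf21* had fewer than 20 UMIs over both libraries. Of the 8 genes, 2 (*Atf4* and *Gdf15*) were at least 2-fold higher and 0 were at least 2-fold lower, *Gdf15* meeting the minimum only through the library where it was higher. Without nuclei of over 5% mitochondrial UMIs the former count was 0, with *Atf4* at a log2 ratio of 0.98 (0.71 to 1.25) and *Gdf15* under the minimum with 2 and 15 UMIs. Of all genes, 14.3% were at least 2-fold higher and 4.43% at least 2-fold lower. The median log2 ratio of the 8 genes was 0.43, beside 0.06 for all of these genes. It was 0.78 for the 10 genes with no minimum of UMIs, and 0.038, beside 0.029 for all genes, in nuclei without an immediate-early UMI, where *Gdf15* was under the minimum. The adipocyte-like class differed in make-up, with 3695 and 1730 nuclei in cluster 0, 1380 and 1370 in cluster 1, 1293 and 839 in cluster 2, 200 and 494 in cluster 8 and 140 and 330 in cluster 10. With clusters weighted by their control share of UMIs, an alternative chosen after seeing the data, *Xbp1* was at 0.63, *Atf4* at 1.31, *Hspa5* at 0.76 and *Gdf15* at 4.37.

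*Atf4* (chromosome 15, 80255184 to 80257545 in GRCm38) encodes the central transcription factor of the response. It had 361 UMIs in adipocyte-like nuclei of the control library, a CPM of 47.7 (42.9 to 52.9), and 953 UMIs in those labelled *Wtap*-BKO, a CPM of 116 (109 to 124). The intervals did not overlap, and the ratio was 2.43-fold, a log2 ratio of 1.28 (1.11 to 1.46). Outside adipocytes it reached a CPM of 63.1 and 136, and the log2 ratio was 1.10 (0.88 to 1.33). *Atf4* was higher in the library labelled *Wtap*-BKO in each of the 8 classes with 10 or more of its UMIs, and the interval was above 0 in 6 of them. The largest log2 ratio was 1.53 (0.40 to 2.91) in Schwann cell-like nuclei, on 7 and 60 UMIs, and the smallest was 0.31 (-0.57 to 1.20) in the unnamed cluster led by mitochondrial RNA.

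*Ddit3* (chromosome 10, 127290793 to 127296291) encodes CHOP, a factor that acts downstream of ATF4 in prolonged stress. It had 450 and 544 UMIs in adipocyte-like nuclei, a CPM of 59.5 (54.1 to 65.2) and 66.2 (60.8 to 72.0), and the log2 ratio was 0.16 (-0.03 to 0.34). These counts were as large as those of *Atf4* in the control library, so a difference of the size seen for *Atf4* lay outside the interval. In cluster 0 of the adipocyte-like nuclei its log2 ratio was 0.37 (0.11 to 0.63). Over 8 classes, *Ddit3* was higher in 4 and lower in 4 in the library labelled *Wtap*-BKO, and the interval held 0 in all 8.

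*Atf5* (chromosome 7, 44812256 to 44816658), a related factor linked to mitochondrial stress, had 122 and 116 UMIs in adipocyte-like nuclei. Its CPM was 16.1 and 14.1, with a log2 ratio of -0.19 (-0.57 to 0.19). *Trib3* (chromosome 2, 152337425 to 152344060) encodes a pseudokinase induced by ATF4 and CHOP. It had 135 and 117 UMIs, a CPM of 17.8 and 14.2 and a log2 ratio of -0.32 (-0.69 to 0.04). This value changed sign, to 0.37 (-0.19 to 0.90), once nuclei with over 5% mitochondrial UMIs were removed.

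*Asns* (chromosome 6, 7675165 to 7693209) encodes asparagine synthetase, one of the best-known ATF4 targets. In adipocyte-like nuclei it had 127 and 110 UMIs, a CPM of 16.8 and 13.4, and a log2 ratio of -0.33 (-0.71 to 0.05). Within ranges of mitochondrial share, *Asns* was not lower there under 5%, at 0.03 (-0.57 to 0.60), or from 5 to 10%, at 0.49 (-0.62 to 1.75). In non-adipocyte nuclei it had 44 and 45 UMIs, a CPM of 13.7 and 7.85, and the log2 ratio of -0.81 (-1.44 to -0.17) had its interval below 0. *Asns* was lower in the library labelled *Wtap*-BKO in 5 of 5 classes with 10 or more UMIs, although no single class had an interval below 0.

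Of the 2 hormones, *Gdf15* (chromosome 8, 70629393 to 70632470), a signal to the hindbrain that lowers food intake, had the largest ratio of the 10 genes. It had 3 UMIs in 6708 adipocyte-like nuclei of the control library and 66 UMIs in 4763 nuclei of the library labelled *Wtap*-BKO. The CPM was 0.40 (0.08 to 1.16) and 8.04 (6.21 to 10.2), which gives a log2 ratio of 4.34 (2.73 to 6.66). The intervals of *Chac1* (0.30 to 5.67) and *Fgf21* (-0.96 to 7.77) overlapped that of *Gdf15*, so this rank was not resolved. The 66 UMIs were spread over 55 nuclei, so no few nuclei held them. Non-adipocyte nuclei had 1 and 20 UMIs, of which macrophage-like nuclei of the library labelled *Wtap*-BKO held 9. Within that library, *Gdf15* was higher in adipocyte-like than in non-adipocyte nuclei, at a CPM of 8.04 and 3.49 and a log2 ratio of 1.20 (0.46 to 2.004).

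*Fgf21* (chromosome 7, 45613890 to 45615490), a hormone of nutrient stress, was close to absent from the data. It had 1 UMI in adipocyte-like nuclei of the control library and 5 UMIs in 4 nuclei of the library labelled *Wtap*-BKO, with a log2 ratio of 2.20 whose interval ran from -0.96 to 7.77. It had 0 UMIs in non-adipocyte nuclei of both libraries, with exact upper limits of the CPM at 1.15 and 0.644. *Chac1* (chromosome 2, 119351242 to 119354326), which encodes an enzyme that degrades glutathione, had 2 and 12 UMIs in adipocyte-like nuclei, a CPM of 0.26 and 1.46. Its log2 ratio was 2.47 (0.30 to 5.67). Of the 12 UMIs, 10 lay in nuclei with 5 to 10% mitochondrial UMIs. In non-adipocyte nuclei *Chac1* had 3 and 6 UMIs, a log2 ratio of 0.16 (-2.07 to 2.79).

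Of the genes of the ER branch, *Hspa5* (chromosome 2, 34772090 to 34776529) had 892 UMIs in adipocyte-like nuclei of the control library and 1585 in those of the library labelled *Wtap*-BKO. The CPM was 118 (110 to 126) and 193 (184 to 203), with a log2 ratio of 0.71 (0.59 to 0.83). In non-adipocyte nuclei it was 102 and 203, with a log2 ratio of 0.99 (0.81 to 1.17). *Hspa5* was higher in the library labelled *Wtap*-BKO in 8 of 8 classes, from 0.42 in pericyte-like nuclei to 1.30 in the unnamed cluster, and the interval was above 0 in 5 of them.

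*Xbp1* (chromosome 11, 5520641 to 5525993) had 221 and 429 UMIs in adipocyte-like nuclei, a CPM of 29.2 (25.5 to 33.3) and 52.2 (47.4 to 57.4) and a log2 ratio of 0.84 (0.60 to 1.08). The log2 ratio was 0.98 (0.65 to 1.31) in non-adipocyte nuclei, and it was above 0 in 8 of 8 classes, with the interval above 0 in 2. XBP1 is required by plasma cells, and plasma cell transcripts were present in the T cell-like cluster, where *Igha* was among the leading genes. There, 12 nuclei of the library labelled *Wtap*-BKO with 5 or more UMIs of *Igha*, *Jchain*, *Mzb1* and *Igkc* held 15 of 64 *Xbp1* UMIs, a CPM of 605 beside 50.5 in the other nuclei of that class. Without such nuclei the log2 ratio was 0.82 in adipocyte-like and 0.93 in non-adipocyte nuclei.

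**Figure D1:**
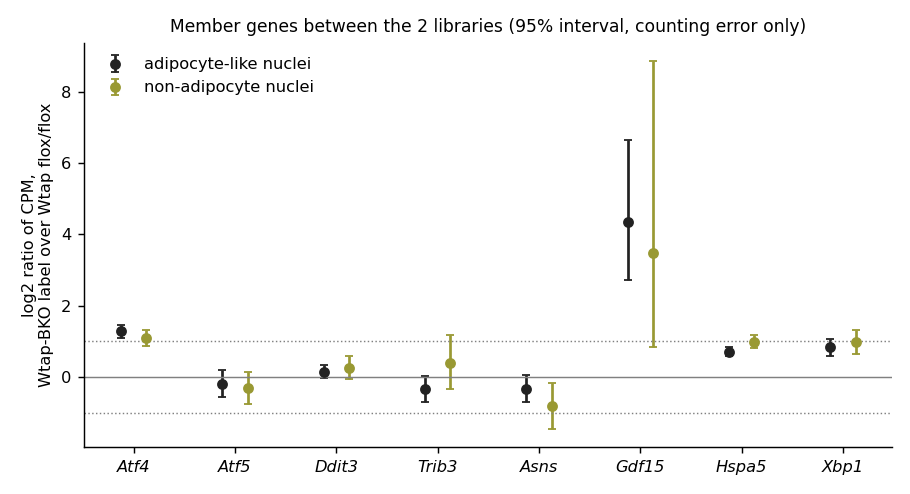
Log2 ratio of CPM (library labelled Wtap-BKO against control) for the 8 genes with 20 or more UMIs, in adipocyte-like nuclei (black) and non-adipocyte nuclei (olive). Points are the ratios, bars their exact 95% intervals for counting error, and dotted lines mark a 2-fold difference. Atf4, Gdf15, Hspa5 and Xbp1 lie above 0 in both groups of nuclei, and Asns lies at -0.33 and -0.81.

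In non-adipocyte nuclei as a whole, 2 of 8 genes (*Atf4* and *Gdf15*) were at least 2-fold higher and 0 were at least 2-fold lower, beside 20.6% and 2.82% of 14071 genes. *Gdf15*, with 1 and 20 UMIs, again met the minimum only through the library where it was higher. The median of all genes was itself at 0.34 there. These nuclei differed in make-up between the libraries, with 290 and 1110 macrophage-like, 117 and 752 T cell-like, 271 and 481 fibroblast-like and 1143 and 774 endothelial-like nuclei. With classes weighted by their control share of UMIs, also an added alternative, *Atf4* was at 1.14, *Hspa5* at 0.77, *Xbp1* at 0.68 and *Asns* at -0.63. Scaling by the median of ratios, which centres the genes, moved that median by -0.29 to 0.05 and brought *Atf4* to 0.81, *Hspa5* to 0.70, *Xbp1* to 0.68 and *Asns* to -1.10. *Atf5* was then at -0.60 (-1.04 to -0.16), beside -0.31 (-0.75 to 0.13) per total UMIs. *Atf4* was under 2-fold and *Asns* past it, and no member with an interval clear of 0 changed direction. Relative to the median of all genes, *Atf4* stood at 1.22 in adipocyte-like and 0.76 in non-adipocyte nuclei, and *Hspa5* at 0.65 in both. RNA of adipocytes was present in all classes. The summed CPM of 12 adipocyte markers was 9164 and 8219 in non-adipocyte nuclei, beside 13728 and 17558 in adipocyte-like nuclei, and its part in the non-adipocyte values was not tested.

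The order of the classes differed from gene to gene, but neighbouring classes never differed beyond their intervals. Some classes further apart did. *Xbp1* was highest in fibroblast-like nuclei of both libraries, at a CPM of 71.6 (44.9 to 108) and 96.4 (78.2 to 118). It exceeded the adipocyte-like level by a log2 ratio of 1.29 (0.59 to 1.93) in the control library and 0.88 (0.55 to 1.21) in the library labelled *Wtap*-BKO. *Hspa5* was highest in macrophage-like nuclei of both, at 176 and 248, above the adipocyte-like level by a log2 ratio of 0.58 (0.16 to 0.97) and 0.36 (0.21 to 0.51). Fibroblasts and macrophages are both secretory cells.

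*Trib3* and *Ddit3*, in contrast, were higher in adipocyte-like than in pooled non-adipocyte nuclei, though not than in each single class. Control *Ddit3* was at a CPM of 70.1 (30.3 to 138) in Schwann cell-like and 63.3 (28.9 to 120) in T cell-like nuclei. Under the *Wtap*-BKO label, *Trib3* was at 17.7 (6.51 to 38.6) in Schwann cell-like nuclei. These intervals overlapped those of adipocyte-like nuclei. *Trib3* was at a CPM of 17.8 in adipocyte-like and 6.87 in non-adipocyte nuclei of the control library, a log2 ratio of 1.38 (0.72 to 2.10). In the library labelled *Wtap*-BKO it was at 14.2 and 9.07, a log2 ratio of 0.65 (0.17 to 1.15). In nuclei with up to 5% mitochondrial UMIs the log2 ratio of *Trib3* was 0.49 (-0.30 to 1.38) in the former library, with 0 inside the interval, and 1.67 (0.71 to 2.73) in the latter. *Ddit3* was at 59.5 and 38.1 in the former library and at 66.2 and 45.7 in the latter, log2 ratios of 0.64 (0.35 to 0.94) and 0.53 (0.32 to 0.75), and the former was 0.29 (-0.12 to 0.72) in nuclei with up to 5% mitochondrial UMIs. *Atf4* went the other way and was slightly lower in adipocyte-like than in non-adipocyte nuclei, by a log2 ratio of -0.40 (-0.66 to -0.15) and -0.22 (-0.36 to -0.09). *Atf5* had the same direction, at -0.54 (-0.97 to -0.10) and -0.42 (-0.81 to -0.02), but the former was -0.38 (-0.84 to 0.09) without the unnamed cluster led by mitochondrial RNA.

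**Figure D2:**
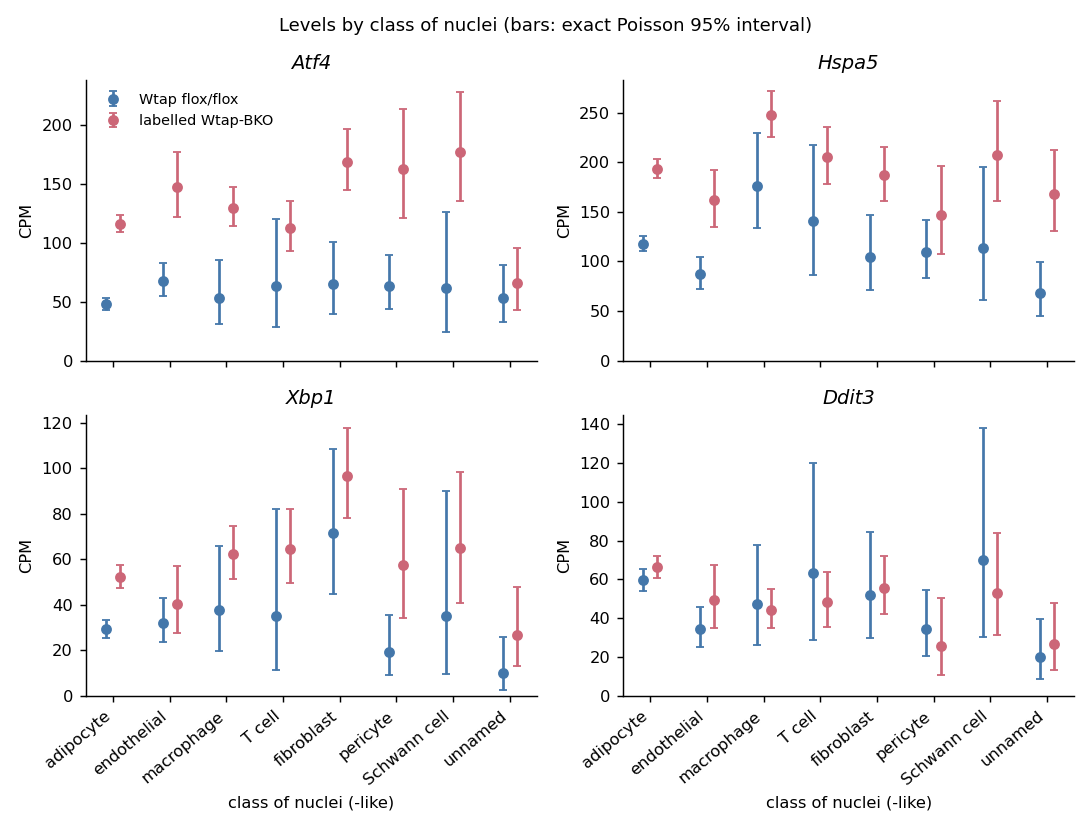
CPM of Atf4, Hspa5, Xbp1 and Ddit3 in each class of nuclei of the Wtap flox/flox library (blue) and the library labelled Wtap-BKO (red), with exact Poisson 95% intervals. The red points of Atf4, Hspa5 and Xbp1 lie above the blue points in all 8 classes, while those of Ddit3 lie above in 4 and below in 4.

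The 5 adipocyte-like clusters were described by subtype markers that had no part in the choice of the 10 genes. Cluster 0 met 4 of 8 genes of the brown program, cluster 1 was led by mitochondrially encoded RNA, cluster 2 met none of the subtype lists, cluster 8 met 6 of 7 white-like genes, and cluster 10 met 10 of 10 interferon-responsive genes. *Atf4* was higher in the library labelled *Wtap*-BKO in each of the 5 clusters, by log2 ratios from 1.18 (0.94 to 1.42) in cluster 0 to 2.11 (0.83 to 3.77) in cluster 10, with all intervals above 0. *Hspa5* was also higher in all 5, from 0.68 (0.43 to 0.93) in cluster 1 to 1.39 (0.54 to 2.38) in cluster 8. *Xbp1* was at 0.74 (0.37 to 1.12) in cluster 0, 0.44 (-0.05 to 0.95) in cluster 1, 0.54 (-0.18 to 1.27) in cluster 2, 0.15 (-0.51 to 0.87) in cluster 8 and 2.05 (0.41 to 4.38) in cluster 10, and the differences between clusters were not tested.

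White-like adipocytes had a distinct balance of the ER genes. In the control library *Xbp1* was at a CPM of 86.1 (54.6 to 129) in the white-like cluster 8 and 24.2 (19.9 to 29.1) in the brown-program cluster 0, a log2 ratio of 1.83 (1.12 to 2.49) between the clusters. In the library labelled *Wtap*-BKO it was at 95.7 (78.1 to 116) and 40.4 (33.8 to 47.9), a log2 ratio of 1.24 (0.86 to 1.63). *Hspa5* was lower in the white-like cluster, at 44.9 and 118 in the former library, a log2 ratio of -1.39 (-2.36 to -0.58), and at 118 and 200 in the latter, -0.76 (-1.04 to -0.48). The same 2 directions thus held in both libraries, with *Xbp1* higher and its chaperone partner in the response lower in white-like than in brown-program nuclei.

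*Gdf15* had 0 UMIs in cluster 0 of the control library and 29 in that of the library labelled *Wtap*-BKO. With the control set to a floor of 3 UMIs the ratio was 13.6-fold, a log2 ratio of 3.77 with a lower limit of 3.38. Within the library labelled *Wtap*-BKO its level was highest in the interferon-responsive cluster 10, at a CPM of 21.9 (12.0 to 36.8) beside 8.81 (5.90 to 12.7) in cluster 0, a log2 ratio of 1.32 (0.28 to 2.28). *Xbp1* was higher in cluster 10 than in cluster 0 of that library too, at 72.1 and 40.4 and a log2 ratio of 0.83 (0.32 to 1.33). Of the 46 *Xbp1* UMIs in cluster 10, 5 lay in 1 nucleus with plasma cell transcripts.

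**Figure D3:**
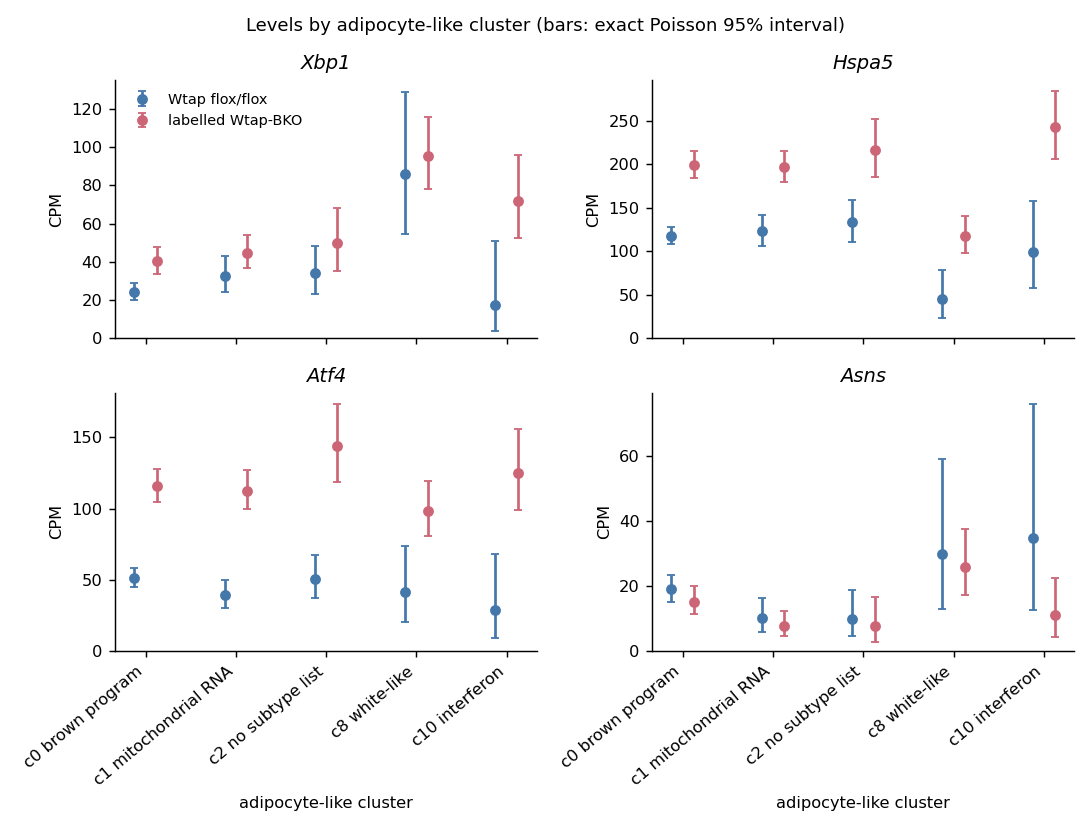
CPM of Xbp1, Hspa5, Atf4 and Asns in the 5 adipocyte-like clusters of the Wtap flox/flox library (blue) and the library labelled Wtap-BKO (red), with exact Poisson 95% intervals. In both libraries Xbp1 is highest and Hspa5 lowest in the white-like cluster 8, and Atf4 is higher in the library labelled Wtap-BKO in all 5 clusters.

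Nuclei with over 5% mitochondrial UMIs made up 33.0% of all control nuclei and 74.8% of all those labelled *Wtap*-BKO. Among adipocyte-like nuclei, 5184 of 6708 in the control library and 1054 of 4763 labelled *Wtap*-BKO were under 5%. Levels in adipocyte-like nuclei were therefore compared within ranges of mitochondrial share, per 1000000 non-mitochondrial UMIs. Under 5%, *Atf4* was at 52.0 and 104, a log2 ratio of 0.995 (0.723 to 1.27), and it was at 1.73 (1.23 to 2.26) from 5 to 10% and 1.56 (0.97 to 2.22) from 10 to 25%. *Hspa5* had log2 ratios of 0.71 (0.52 to 0.90), 0.55 (0.27 to 0.84) and 0.90 (0.53 to 1.31) in these ranges. *Xbp1* had 1.004 (0.637 to 1.37), 0.85 (0.24 to 1.49) and 0.35 (-0.27 to 1.03). *Gdf15* had 2 and 15 UMIs under 5%, a log2 ratio of 4.60 (2.50 to 7.77), 1 and 24 from 5 to 10%, and 0 and 25 from 10 to 25%. *Trib3* differed between ranges, with log2 ratios of 0.38 (-0.18 to 0.92) under 5% and -1.24 (-2.09 to -0.34) from 10 to 25%. *Atf5* was at -1.10 (-1.91 to -0.24) from 10 to 25%. *Asns* was at 0.03 (-0.57 to 0.60) under 5%, 0.49 (-0.62 to 1.75) from 5 to 10% and 0.29 (-0.95 to 1.82) from 10 to 25%. Only over 25%, on 4 and 3 UMIs, was *Asns* lower, at -2.99 (-5.76 to -0.43).

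**Figure D4:**
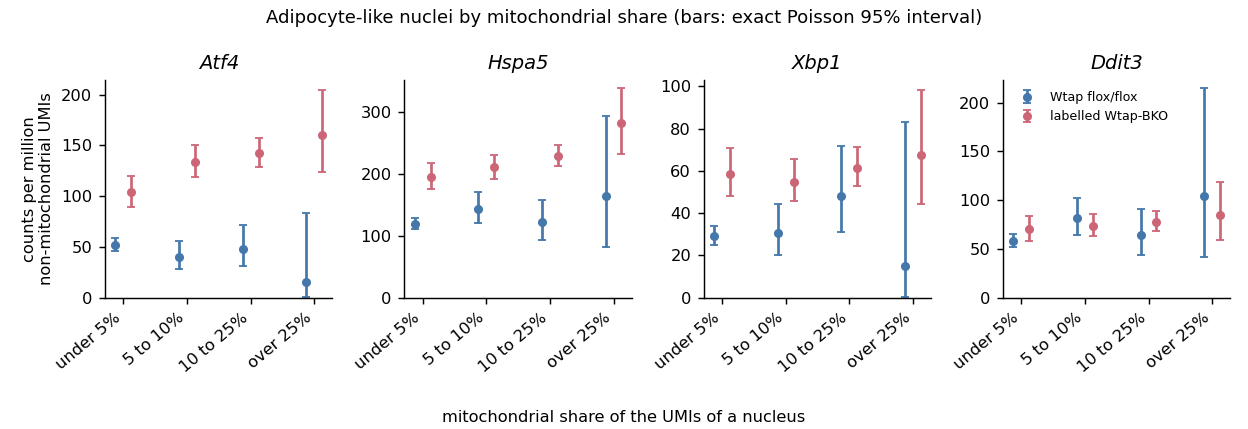
Levels of Atf4, Hspa5, Xbp1 and Ddit3 per 1000000 non-mitochondrial UMIs in adipocyte-like nuclei grouped by the mitochondrial share of their UMIs, for the Wtap flox/flox library (blue) and the library labelled Wtap-BKO (red), with exact Poisson 95% intervals. Atf4 is at 52.0 and 104 under 5% and keeps its gap at higher shares, whereas the intervals of Ddit3 overlap in each range.

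To compare shares of nuclei at 1 depth, each nucleus was thinned to 1000 UMIs, which kept 3284 control nuclei and 3812 labelled *Wtap*-BKO among the adipocyte-like ones and left out 3424 and 951 shallower ones. An *Atf4* UMI was then seen in 4.96% (4.25 to 5.76) and 10.9% (9.89 to 11.9) of nuclei, beside 5.01% and 16.9% before thinning at median depths of 991 and 1505 UMIs. *Hspa5* was seen in 10.5% (9.48 to 11.6) and 17.2% (16.0 to 18.4), *Xbp1* in 2.95% (2.40 to 3.59) and 4.46% (3.83 to 5.16), and *Gdf15* in 0.03% and 0.58%. Before thinning, these shares were 12.0% and 26.0%, 3.16% and 7.87%, and 0.04% and 1.15%. In non-adipocyte nuclei, at median depths of 842.5 and 1045 UMIs, the thinned share for *Atf4* was 5.15% and 10.7%. No class is known to lack these genes other than the 2 hormones, so free RNA cannot be told apart from expression by such shares alone. At least 2 of the 10 genes were seen together in 3.23% and 6.19% of the thinned adipocyte-like nuclei, and at most 4 in any nucleus.

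The wider pathway was examined in 10 lists with 133 genes. Among the sensors and eIF2 regulators in adipocyte-like nuclei, the regulatory subunits that guide the phosphatase which removes the phosphate from eIF2 were higher in the library labelled *Wtap*-BKO, *Ppp1r15a* (GADD34, an ATF4-induced feedback gene) with 27 and 123 UMIs, with a log2 ratio of 2.07 (1.46 to 2.73), and *Ppp1r15b* with 431 and 1202 UMIs and 1.36 (1.20 to 1.52). The kinase PERK (*Eif2ak3*), at a log2 ratio of -0.43 (-0.69 to -0.17), and the protease *Mbtps2*, which cleaves ATF6, at -0.46 (-0.69 to -0.23), were lower. Of 14 genes in this list, 6 were above 0, beside 54.2% of all genes, and the median was -0.17.

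Among 9 other stress transcription factors, *Jund* at 1.68 (1.33 to 2.03), *Cebpb* at 1.30 (1.18 to 1.42) and *Atf3* at 1.12 (0.18 to 2.14) were at least 2-fold higher, beside 14.3% of all genes, and the median was 0.29. *Atf3*, with 14 and 33 UMIs, met the minimum only through the library where it was higher. *Creb3* had a log2 ratio of -0.98 (-1.43 to -0.55), which was past 2-fold under median-of-ratios scaling, and *Nfe2l2* was at 0.18 (0.04 to 0.33).

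ATF4 target genes of amino acid supply went both ways. The enzymes that start serine synthesis were higher, *Phgdh* with 28 and 145 UMIs at a log2 ratio of 2.25 (1.66 to 2.89) and *Psat1* with 24 and 100 UMIs at 1.94 (1.29 to 2.65). *Shmt2*, the mitochondrial enzyme that turns serine into glycine, was lower, with 77 and 36 UMIs and -1.21 (-1.83 to -0.63). *Ddit4* (REDD1), an inhibitor of mTORC1, was also lower, with 91 and 21 UMIs and -2.23 (-2.99 to -1.54). Of 17 genes with 20 or more UMIs, 2 were at least 2-fold higher and 2 at least 2-fold lower, beside 14.3% and 4.43% of all genes, and the median was 0.10. The list of 13 genes of tRNA charging, made up of cytosolic aminoacyl-tRNA synthetases, which ATF4 also activates, and the tRNA export factor *Xpot*, had a median of -0.31. Only *Sars*, at 0.22 (0.01 to 0.43), and *Nars*, at 0.06 (-0.22 to 0.34), were above 0, beside 54.2% of all genes, and *Iars*, at -0.98 (-1.25 to -0.71), and *Mars*, at -0.49 (-0.78 to -0.19), were lowest. With mitochondrial UMIs left out of the denominator, 3 of 13 were above 0, beside 61.0% of all genes.

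The ER chaperones and folding enzymes accompanied *Hspa5*. Of 16 measured genes, 15 were above 0 in adipocyte-like nuclei, beside 54.2% of all genes (13 under median-of-ratios scaling, beside 51.9%). The interval was above 0 for 11 and below 0 for 0, beside 31.2% and 24.6% of all genes, and the median was 0.53. *Manf* at 1.27 (0.87 to 1.68) and *Dnajb9* at 1.25 (0.88 to 1.63), a secreted ER protein and a BiP co-chaperone, were at least 2-fold higher. This was 2 of 16 genes, beside 14.3% of all genes, and the count was 5 per non-mitochondrial UMIs, beside 16.5%. The oxidases *Ero1l*, at 0.01 (-0.29 to 0.31), and *Ero1lb*, at -0.10 (-0.59 to 0.40), were lowest. In non-adipocyte nuclei the 17 measured genes were above 0 under each of the 3 scalings, beside 71.1% of all genes per total UMIs, 68.1% per non-mitochondrial UMIs and 53.4% with median-of-ratios scaling. *Sdf2l1*, with 1 and 20 UMIs, met the minimum only through the library where it was higher. There, 9 were at least 2-fold higher (4 under median-of-ratios scaling), beside 20.6% of all genes (14.5%), and the median was 1.06 beside 0.34 for all genes. With classes weighted as in the control library, 3 of 17 were at least 2-fold higher, beside 13.4% of all genes, and the median was 0.70 beside 0.28.

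Genes of ER-associated degradation had a median of 0.37. *Derl3*, a channel component, had 3 and 50 UMIs, with a log2 ratio of 3.94 (2.31 to 6.27), and met the minimum only through the library where it was higher. It was the only 1 of 13 measured genes at least 2-fold higher, beside 14.3% of all genes. *Nfe2l1*, an ER-bound factor that raises proteasome genes, was at 0.98 (0.88 to 1.08). *Edem3* was at -0.40 (-0.61 to -0.20) and *Syvn1* at -0.21 (-0.43 to 0.00). *Derl3* is abundant in plasma cells, whose 4 genes were at a summed CPM of 16.1 and 118 in adipocyte-like nuclei. Of the 50 *Derl3* UMIs, 1 lay in a nucleus with 5 or more plasma cell UMIs.

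Mitochondrial chaperones and proteases had a median of 0.03, between *Hspe1* at 0.55 (0.36 to 0.74) and *Htra2* at 0.21 (-0.06 to 0.47) on 1 side and *Afg3l2* at -0.81 (-0.91 to -0.72) and *Yme1l1* at -0.46 (-0.61 to -0.31) on the other. Cytosolic heat shock genes had a median of 0.24, with *Hspb8* at 0.84 (-0.02 to 1.75), *Hsp90aa1* at 0.72 (0.46 to 0.99), *Hsph1* at -0.49 (-0.81 to -0.17) and *Hspb1* at -0.42 (-1.44 to 0.57). In both lists 0 genes were past 2-fold, beside 14.3% of all genes higher and 4.43% lower. Of the receptors for FGF21 and GDF15, the FGF21 co-receptor *Klb* had 489 and 851 UMIs in adipocyte-like nuclei and a log2 ratio of 0.68 (0.52 to 0.84). *Fgfr2* was at 0.85 (0.73 to 0.96) and *Fgfr1* at 0.06 (-0.09 to 0.21).

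**Figure D5:**
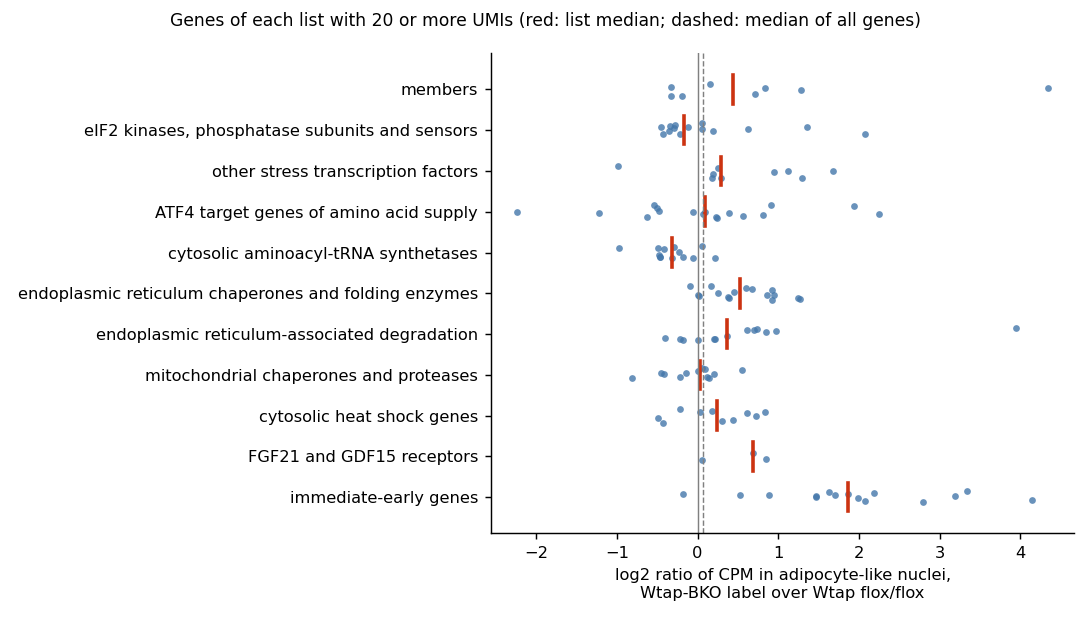
Log2 ratio of CPM in adipocyte-like nuclei (library labelled Wtap-BKO against control) for each gene with 20 or more UMIs (blue points) of the 10 genes and the pathway lists, with the list medians (red) and the median of all genes (dashed, 0.06). The medians run from -0.31 for the list with the aminoacyl-tRNA synthetases through 0.53 for the ER chaperones to 1.86 for the immediate-early genes.

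Immediate-early genes, which rise within minutes of cell disturbance, were mostly higher in the library labelled *Wtap*-BKO, as *Atf4* was. Of 15 measured in adipocyte-like nuclei, 12 were at least 2-fold higher in the library labelled *Wtap*-BKO and 0 at least 2-fold lower, beside 14.3% and 4.43% of all genes, with a median of 1.86. *Egr1* at 4.15 (3.75 to 4.58) and *Btg2* at 3.34 (2.94 to 3.75) were highest, the others past 2-fold being *Junb* (3.20), *Ier3* (2.79), *Zfp36* (2.18), *Nr4a1* (2.08), *Ier2* (1.99), *Dusp1* (1.86), *Ccn1* (1.71), *Fos* (1.63), *Nr4a3* and *Egr2* (both 1.47). *Egr2*, with 6 and 18 UMIs, and *Ier3*, with 14 and 105, had fewer than 20 control UMIs and met the minimum through the library where they were higher. *Nr4a2* at 0.53 (0.36 to 0.69) and *Myc* at -0.19 (-0.52 to 0.15) were lowest. Their summed CPM was 287 and 1016 in adipocyte-like nuclei, 345 and 1999 in endothelial-like, 438 and 982 in macrophage-like and 358 and 2723 in fibroblast-like nuclei. In adipocyte-like nuclei without any immediate-early UMI, an alternative chosen after seeing the data, the log2 ratio was 1.23 (0.97 to 1.49) for *Atf4*, 0.61 (0.42 to 0.80) for *Hspa5*, 0.79 (0.43 to 1.15) for *Xbp1* and 4.25 (2.15 to 7.42) for *Gdf15*. An immediate-early UMI was present in 25.7% and 69.5% of adipocyte-like nuclei, and the part of cell disturbance in these values was not tested. With 1 library per genotype, the library and the genotype label cannot be told apart.

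Over 15 points, each 1 library and class with at least 100 nuclei, the genes whose level was most like that of *Atf4* were *Nr4a1* (Pearson r of log2(CPM + 10) 0.92), *Ubald2* and *Btg2* (both 0.90), among 11440 genes. *Hspa5* was most like *Tmed10* (0.90), *Rnf19b* (0.89) and *Arf6* (0.88), *Xbp1* most like *Sec22b* and *Irgm2* (both 0.92), and *Ddit3* most like *Atl3* (0.94), *Zfp267* (0.90) and *3110001I22Rik* (0.90). The genes nearest to *Trib3* were *Tuba8* (0.89), *Acss2* (0.83) and *Mrpl37* (0.83). For *Atf5* they were *Zfyve21* (0.88), *Ift20* (0.82) and *Timm29* (0.80), and for *Asns* *H2-Ke6* (0.82), *Gm32200* (0.79) and *Cog6* (0.78). The points of a library share its preparation, depth and free RNA, so these values describe the 2 libraries.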

How the data were processed

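snRNA-seq of iBAT was analysed for 1 library of *Wtap* flox/flox and 1 labelled *Wtap*-BKO. The deposited values were raw counts of UMIs per gene and nucleus, made by the authors with Cell Ranger 5.0.0 per the file headers. The submitters' processing notes name build mm10, and the treatment of intronic reads was not given in the sources used here. The lowest total was 500 UMIs per nucleus, the minimum of the study, and no nucleus was removed. *Ddit3* had 2 listed genes, and the earlier (ENSMUSG00000025408) was used. Coordinates are those of RefSeq, assembly GRCm38.p6.

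Nuclei were clustered with Seurat 5.3.0 after the methods of the study (2000 variable features without the list genes, canonical correlation analysis, 20 PCs, resolution 0.5). A cluster was named from 3 or more markers with at least 10 UMIs and 2 times the CPM of other nuclei, and of the rest as adipocyte-like if 50% of 12 markers had 1.5 times the CPM of the named clusters. These thresholds were set after seeing the data. UMIs were summed per library and class. In an alternative added later, cluster or class levels of the library labelled *Wtap*-BKO were weighted by the control library's UMI shares. Intervals were exact Poisson, binomial (Clopper-Pearson) or conditional at 95% and were checked on simulated data. All 10 genes are named, with the 2 highest and 2 lowest of each list, genes past 2-fold, and the 3 genes of most like level for those with 200 or more UMIs, of which 1 is not reported here. The members and lists were chosen with earlier results of these data known. Scrublet (scanpy 1.11.5) called 3 and 0 doublets, so the calls had not worked and doublets were kept, except in 1 alternative.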

Additional observations from a re-analysis of the deposited data

Results flagged for a closer look

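For 7 of 129 pathway genes with the minimum of UMIs in both groups of nuclei, the log2 ratio had an interval on one side of 0 in adipocyte-like nuclei and on the other side in non-adipocyte nuclei. This was 5.43% of these genes, beside 6.51% of all 12875 genes with as many UMIs, and the difference itself was not tested. Of these, 4 were sensors of the unfolded protein response or the proteases that activate ATF6. *Eif2ak3* (PERK) was at -0.43 in adipocyte-like and 0.75 in non-adipocyte nuclei, *Atf6* at -0.34 and 0.86, *Mbtps1* at -0.22 and 0.44, and *Mbtps2* at -0.46 and 0.65. *Sel1l*, of ER-associated degradation, was at -0.18 and 0.43. The chaperones *Hspd1*, at 0.14 and -0.38, and *Hsp90ab1*, at 0.18 and -0.17, went the other way. The median of all genes was 0.06 and 0.34. The make-up of the non-adipocyte nuclei differed between the libraries, with 290 and 1110 macrophage-like, 117 and 752 T cell-like and 1143 and 774 endothelial-like nuclei. With classes weighted as in the control library, the non-adipocyte value was 0.23 for *Eif2ak3*, 0.26 for *Atf6*, 0.39 for *Mbtps1*, 0.61 for *Mbtps2*, 0.32 for *Sel1l*, -0.27 for *Hspd1* and -0.06 for *Hsp90ab1*. *Eif2ak3* held 0 in its interval in each of 5 classes, between 0.07 (-0.94 to 1.26) in T cell-like and 0.34 (-0.70 to 1.34) in pericyte-like nuclei. *Hsp90ab1* was above 0 in T cell-like nuclei, at 0.78 (0.15 to 1.48), and in macrophage-like nuclei, at 0.59 (0.12 to 1.09), against its pooled direction. Both signs held for all 7 genes when mitochondrial UMIs were left out or ratios were scaled by their median, but under each of these 1 interval of *Mbtps1* and of *Sel1l* held 0.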

How the results depend on the processing

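No paired analysis was possible because each genotype had 1 library. Over 9 other settings and 3 added after seeing the data, 486 of 512 values stayed within the main interval or count range, 26 moved out of it and 0 called values reversed. For a list median, the main interval ran between the medians of its genes' lower and upper limits. Such intervals, and those of genes with few UMIs, are wide, so this count does not measure how stable these values are. The median of the ATF4 target list ran from 0.02 to 0.47 and stayed within its interval 12 of 12 times. With nuclei over 5% mitochondrial UMIs removed, the number of the 10 genes at least 2-fold higher was 0, since *Atf4* was at 0.98 and *Gdf15* was under the minimum of UMIs, and the medians were 0.54 for heat shock genes and 0.96 for receptors. With no minimum of UMIs it was 4 (*Chac1* and *Fgf21* added), and the median of the 10 genes was 0.78. Without nuclei holding an immediate-early UMI it was 1, *Gdf15* being under the minimum, and the medians were 0.038 for the members and 0.55 for other stress transcription factors, and there the immediate-early list itself gave no value. Over the settings, the adipocyte-like values were 0.98 to 1.40 for *Atf4*, 0.61 to 0.82 for *Hspa5*, 0.63 to 0.99 for *Xbp1* and 3.98 to 5.33 for *Gdf15*. Counts limit *Fgf21*, *Chac1* and single classes of *Gdf15*, and pooled mice limit all values.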

Other observations

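Outside adipocytes, the summed CPM of all 17 genes of the ER chaperone list was 675 and 1400 in T cell-like nuclei of the control library and of the other, 560 and 822 in endothelial-like, 862 and 1365 in macrophage-like, 631 and 989 in fibroblast-like, 537 and 768 in pericyte-like, 886 and 1191 in Schwann cell-like, 347 and 1284 in B cell-like and 499.98 and 704 in unnamed nuclei. The B cell-like class had only 12 and 59 nuclei, and its values rest on 3 and 74 UMIs of the list. The summed CPM of 4 plasma cell genes was 190 and 2770 in T cell-like, 78.9 and 718 in Schwann cell-like and 32.2 and 644 in all non-adipocyte nuclei. Plasma cells are known to be rich in ER chaperones. Without nuclei of 5 or more plasma cell UMIs, an alternative added after seeing the data, the list was at 649.99 and 1326 in T cell-like, 886 and 1179 in Schwann cell-like and 601 and 1123 in all non-adipocyte nuclei. In non-adipocyte nuclei, *Creld2* had 24 and 114 UMIs (1.41, 0.76 to 2.11), *Pdia4*, a disulfide isomerase, 41 and 199 (1.44, 0.95 to 1.96) and *Ero1lb* 25 and 170 (1.93, 1.31 to 2.59). Without those nuclei the log2 ratios were 1.28 for *Creld2*, 1.38 for *Pdia4* and 1.92 for *Ero1lb*. With classes weighted as in the control library, they were 1.51 for *Creld2*, 0.80 for *Pdia4* and 0.93 for *Ero1lb*, and macrophage-like nuclei, which held 12 and 107 of the *Ero1lb* UMIs, were at 0.64 (-0.22 to 1.64).

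Among the amino acid transporters of the ATF4 list, *Slc7a11*, which imports cystine, had 64 and 277 UMIs in non-adipocyte nuclei (1.27, 0.88 to 1.69), its partner *Slc3a2* 69 and 281 (1.19, 0.80 to 1.59), and *Slc7a1* 40 and 183 (1.35, 0.85 to 1.89). Of the *Slc7a11* UMIs, 52 and 225 lay in fibroblast-like nuclei, where the log2 ratio was 0.40 (-0.04 to 0.87). With classes weighted as in the control library, the values were 0.51 for *Slc7a11*, 0.82 for *Slc3a2* and 1.38 for *Slc7a1*. Of 17 measured genes of the list, 7 were at least 2-fold higher there, beside 20.6% of all genes. Of the 7, *Psat1* (7 and 55 UMIs), *Phgdh* (16 and 65) and *Slc7a5* (1 and 26) met the minimum only through the library where they were higher. This count was 3 under median-of-ratios scaling, beside 14.5%, and 3 with weighted classes, beside 13.4%. Of the list, 1 gene, *Ddit4*, was at least 2-fold lower, beside 2.82% of all genes, at -1.38 (-1.78 to -0.97).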
